A study of Mus musculus with 8 samples.

Results

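The genes described here encode F-box proteins, cullins and partner subunits of SCF ubiquitin ligases, and were measured in mouse J1 embryonic stem cells on Affymetrix arrays. A gene was taken where a probe set annotated to it alone had a symbol starting with Fbxl, Fbxw, Fbxo or Cul and a digit, or was Skp1, Skp2, Rbx1, Ccnf or Btrc. Where a gene had several such probe sets, the brightest on average stood for it. This gave 47 genes of 12394 measured on the array, 22 named Fbxo, 9 Fbxw or Btrc, 7 Cul and 6 Fbxl, with Skp1, Skp2 and Ccnf. Names decided which genes entered, and mean level which probe set stood for each.

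There were 4 groups of 2 arrays. Cells carried Fbxl19 knockdown shRNA1, Fbxl19 knockdown shRNA2, or shControl, a control hairpin, or were on day 4 of differentiation. All came from the J1 line, and the growth protocol given for every sample is that of stem cells on gelatin with serum and leukemia inhibitory factor (LIF). The labels do not say how cells were differentiated, whether day 4 cells carried a hairpin, or whether replicates were separate cultures. The p-values therefore weigh a difference only against the spread between arrays within groups, and that spread may be technical.

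An SCF ligase attaches ubiquitin to proteins in 4 parts that work together. The cullin Cul1 is the scaffold, the RING protein Rbx1 recruits the ubiquitin-carrying enzyme (E2), Skp1 is the adaptor, and an exchangeable F-box protein binds Skp1 and selects the substrate. Cullins are switched on by attachment of the ubiquitin-like protein Nedd8 and switched off by the COP9 signalosome, and other cullins build ligases of the same plan with other adaptors. F-box names record the substrate-binding part: leucine-rich repeats in Fbxl, WD40 repeats in Fbxw and other or no known domains in Fbxo. Fbxl19 itself, an Fbxl protein with a CXXC zinc finger that binds unmethylated CpG DNA, had no probe set annotated to it, so the depth of the knockdown was not measured here.

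Some relatives were out of reach as well. The RING gene Rbx1 was left out by the rule, because its 4 probe sets are annotated to Rbx1 and a pseudogene together. Fbxo5, Fbxl21 and Fbxl22 were not analysed here. Of the 47 genes, 28 had 1 probe set and 19 had several. Cul9 and Fbxo43 had group means below the lowest lower quartile of any array, 3.79 on the log2 scale, in all 4 groups. Their readings may therefore be near background, which is not given.

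The control arrays stood somewhat apart, which bears on every difference from them. Over these 47 genes the absolute difference between partner arrays had a median of 0.08 on the log2 scale with shRNA1, 0.10 with shRNA2, 0.19 on day 4 and 0.21 with shControl. All 3 quartiles of shControl replicate 2 fell beyond those of every other array. Actin control probes at the 3' end, a sign of RNA quality, read above those at the 5' end by 0.70 to 0.76 on the 4 knockdown arrays, 0.73 and 0.65 on day 4, and 0.60 and 0.54 with shControl. The same measure on Gapdh probes did not set the controls apart. It was 0.18 to 0.27 on the knockdown arrays, 0.26 and 0.20 on day 4, and 0.17 and 0.26 with shControl. The part of RNA quality in the results below was not tested.

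Markers of the labelled cell type were present. Of 12 stem cell markers, 9 fell on day 4 and 0 passed the threshold given below in any hairpin comparison. Their mean log2 level was 11.38 and 11.43 with shRNA1, 11.26 and 11.39 with shRNA2, 10.07 and 9.21 on day 4, and 11.32 and 11.32 with shControl. Day 4 replicate 2 thus had the lowest level of these markers. Of 6 markers of the primed epiblast, 4 rose on day 4, and 1, Otx2, rose with shRNA1. Among markers of other lineages, 3 of 6 for trophoblast rose (Krt18 by 3.53, Krt8 by 2.83 and Cdx2 by 0.59), and Tfap2c fell by 1.75. For mesendoderm 2 of 5 rose (Eomes by 2.70 and Wnt3 by 0.91), for neural cells 1 of 5 (Zic1, by 0.71) and for endoderm 0 of 6. The part of these cell types in the day 4 differences below was not tested. Of 6 fibroblast markers, 0 passed the threshold on day 4, although Thy1 differed by -0.98 and Col1a2 by 0.90, each without overlap. The mean level of the 6 was 3.97 and 3.98 on day 4 against 3.96 and 3.91 with shControl, where such opposite differences can cancel.

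Differences below are log2 differences ± the moderated standard error of limma (SE), from a model over all 8 arrays. The threshold for a call was an adjusted p of 0.05 (Benjamini-Hochberg, over all 12394 genes). On day 4 of differentiation, 6 of the 47 genes rose and 5 fell against shControl, 11 in all or 23.4%, where 16.4% of all genes were called (7.67% higher and 8.73% lower). The median difference of the 47 genes was 0.01, and that of all genes was 0.00. In 28 of the 47 genes (59.6%) the day 4 arrays did not overlap the shControl arrays, as in 50.4% of all genes, and 19 (40.4%) had an unadjusted p under 0.05, against 29.2%. Against the mean of the 3 undifferentiated groups, 14 were called, where 22.8% of all genes were (10.7% higher and 12.1% lower). The genes were thus called at a share not far above that of the array as a whole, and moved about equally in both directions.

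**Figure D1:**
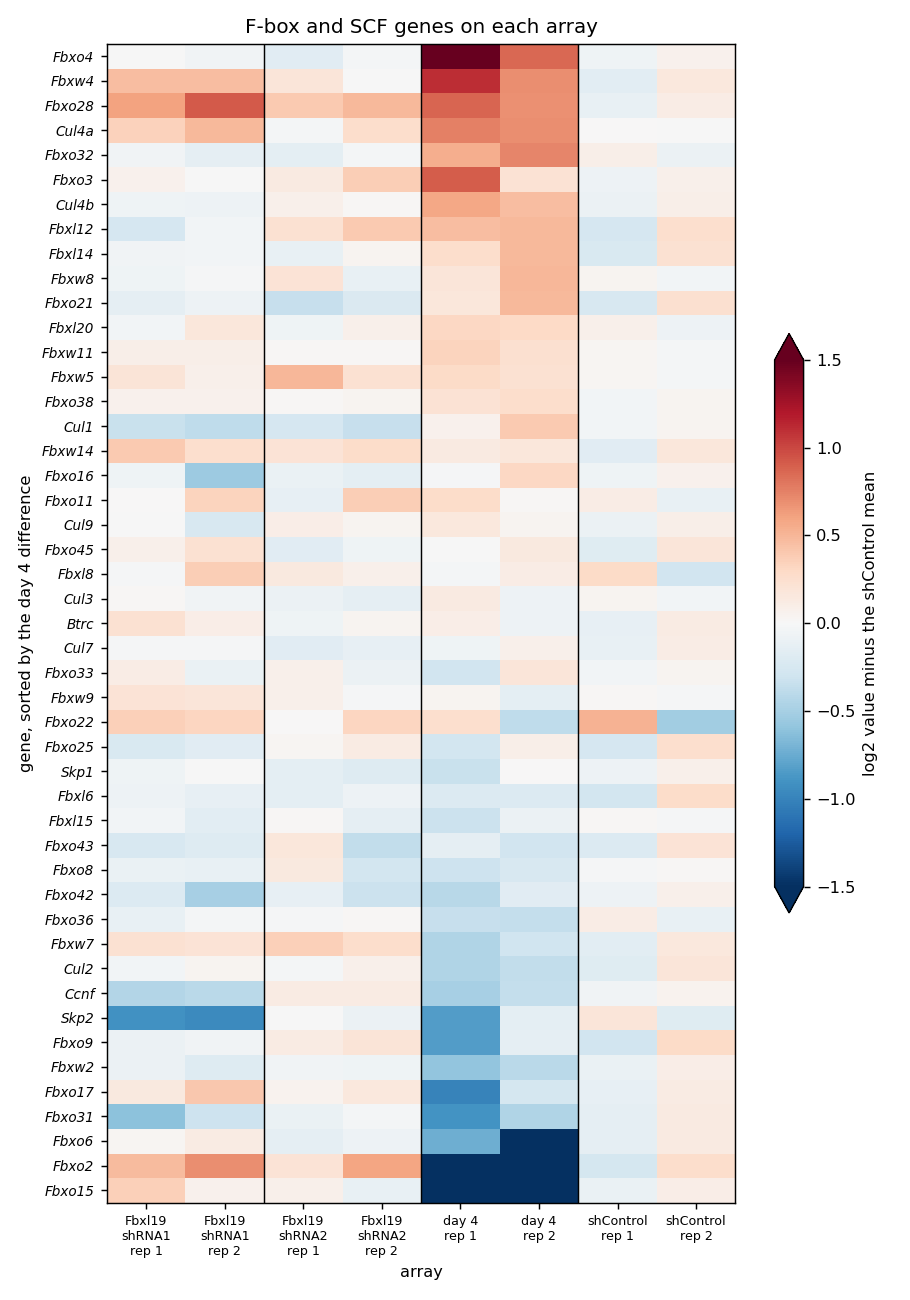
Log2 value of each of the 47 genes on each of the 8 arrays minus the gene's shControl mean, as a colour scale that saturates beyond 1.5 in either direction; genes are sorted by the day 4 difference. The strongest colours lie on the day 4 arrays, with Fbxo4 at the top (1.28) and Fbxo15 at the bottom (-3.31).

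The steepest fall was that of Fbxo15, an F-box gene long used as a reporter of the undifferentiated state because Oct4 and Sox2 act on its enhancer. Its log2 value was 11.25 and 10.95 with shRNA1, 10.97 and 10.78 with shRNA2, 8.48 and 6.70 on day 4, and 10.80 and 10.99 with shControl. All 6 undifferentiated arrays lay close together, and both day 4 arrays lay far below them. Fbxo15 fell by 3.31 ± 0.45, or 9.90-fold (limma adjusted p = 0.00129). Its day 4 arrays were also far apart, by 1.78, the widest gap between partner arrays of any of the 47 genes in any group. The lower was replicate 2, the array that also had the lowest stem cell markers. Without day 4 replicate 1 the difference was -4.20, and without day 4 replicate 2 it was -2.42. In these bulk samples, fewer cells of a type and less RNA per cell cannot be told apart.

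Fbxo2 and Fbxo6, which encode lectin-like F-box proteins that bind N-glycans of misfolded glycoproteins, fell together. Fbxo2 had 7.74 and 7.97 with shRNA1, 7.48 and 7.87 with shRNA2, 5.54 and 5.26 on day 4, and 7.01 and 7.54 with shControl. It fell by 1.88 ± 0.22, or 3.67-fold (limma adjusted p = 0.000511), and it and Fbxo15 were the genes called under all 18 alternative settings. Fbxo6 had 8.60 and 8.69 with shRNA1, 8.43 and 8.48 with shRNA2, 7.83 and 6.53 on day 4, and 8.43 and 8.70 with shControl. It fell by 1.38 ± 0.34, or 2.61-fold (limma adjusted p = 0.0241). As with Fbxo15, the lower day 4 array was replicate 2, and Fbxo6 had -0.73 without that array and -2.03 without replicate 1. The call of Fbxo6 was lost without shControl replicate 1 (-1.52) and without shControl replicate 2 (-1.25). Fbxo17, of the same glycan-binding family, had 6.0 and 6.74 on day 4 against 6.88 and 7.13 with shControl, a difference of -0.64 ± 0.23 that did not pass (limma adjusted p = 0.102). It was called without day 4 replicate 2 (-1.01), with the replicate block (-0.64, adjusted p = 0.0357) and against the mean of the 3 undifferentiated groups (-0.77, adjusted p = 0.0186), and was -0.27 without day 4 replicate 1. This family was singled out after the values were seen.

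Fbxo2 and Fbxo6 lie near each other on chromosome 4, with Fbxo44, another member of the family, as the coding gene between them in the RefSeq annotation. Their RefSeq promoter windows, from 250 bases before to 50 after the annotated start in GRCm38.p6, are shown because these neighbours fell together; CpG dinucleotides are in capitals. The Fbxo2 window is chr4:148160418-148160717 on the plus strand and the Fbxo6 window, the first of 3 listed, is chr4:148152086-148152385 on the minus strand.
Fbxo2: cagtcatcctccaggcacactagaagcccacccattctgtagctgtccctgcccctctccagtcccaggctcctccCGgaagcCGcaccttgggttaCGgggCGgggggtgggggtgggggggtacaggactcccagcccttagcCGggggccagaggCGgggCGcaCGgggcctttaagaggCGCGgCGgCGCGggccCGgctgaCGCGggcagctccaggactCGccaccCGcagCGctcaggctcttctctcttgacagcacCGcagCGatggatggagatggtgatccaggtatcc
Fbxo6: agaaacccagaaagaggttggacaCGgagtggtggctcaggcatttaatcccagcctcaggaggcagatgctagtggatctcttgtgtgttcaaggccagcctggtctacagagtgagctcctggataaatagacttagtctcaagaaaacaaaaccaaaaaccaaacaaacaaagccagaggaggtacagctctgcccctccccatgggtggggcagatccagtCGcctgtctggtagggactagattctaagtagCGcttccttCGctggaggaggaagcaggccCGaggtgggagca
The letters CG occurred 21 times in the Fbxo2 window and 5 times in that of Fbxo6. The windows shown for these neighbours thus differ in CpG content, and the other windows listed for Fbxo6 are not described here. No measurement here bears on binding to either window.

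Among the genes that rose on day 4, Fbxo4 had the largest difference. Fbxo4 is a receptor linked in human and mouse cells to turnover of cyclin D1. Its log2 value was 4.50 and 4.45 with shRNA1, 4.34 and 4.48 with shRNA2, 6.20 and 5.37 on day 4, and 4.44 and 4.56 with shControl. It rose by 1.28 ± 0.24, or 2.43-fold (limma adjusted p = 0.00645). Here replicate 1 was the higher of the day 4 arrays, and the difference was 1.70 without replicate 2 and 0.86 without replicate 1. The call was lost without shControl replicate 1 (1.22) and without shControl replicate 2 (1.34). The other probe set of Fbxo4, which was dimmer (mean 3.30, below the lower quartiles of the arrays), gave -0.07.

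Fbxw4, known in the mouse from the dactylaplasia limb mutation, had 6.74 and 6.33 on day 4 against 5.47 and 5.79 with shControl. It rose by 0.90 ± 0.18 (limma adjusted p = 0.00909), and was not called without shControl replicate 1 (0.74). The shRNA1 arrays of Fbxw4, 6.09 and 6.09, lay between these groups, and the shRNA2 arrays, 5.81 and 5.62, lay near the controls. Fbxo32 encodes atrogin-1, the F-box protein of muscle wasting. It had 4.77 and 4.96 on day 4 against 4.31 and 4.14 with shControl, and rose by 0.64 ± 0.14 (limma adjusted p = 0.0138). Both of its probe sets rose, the other by 0.78, while the call of the brighter was kept in 14 of 17 settings and lost without shControl replicate 2 (0.55).

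**Figure D2:**
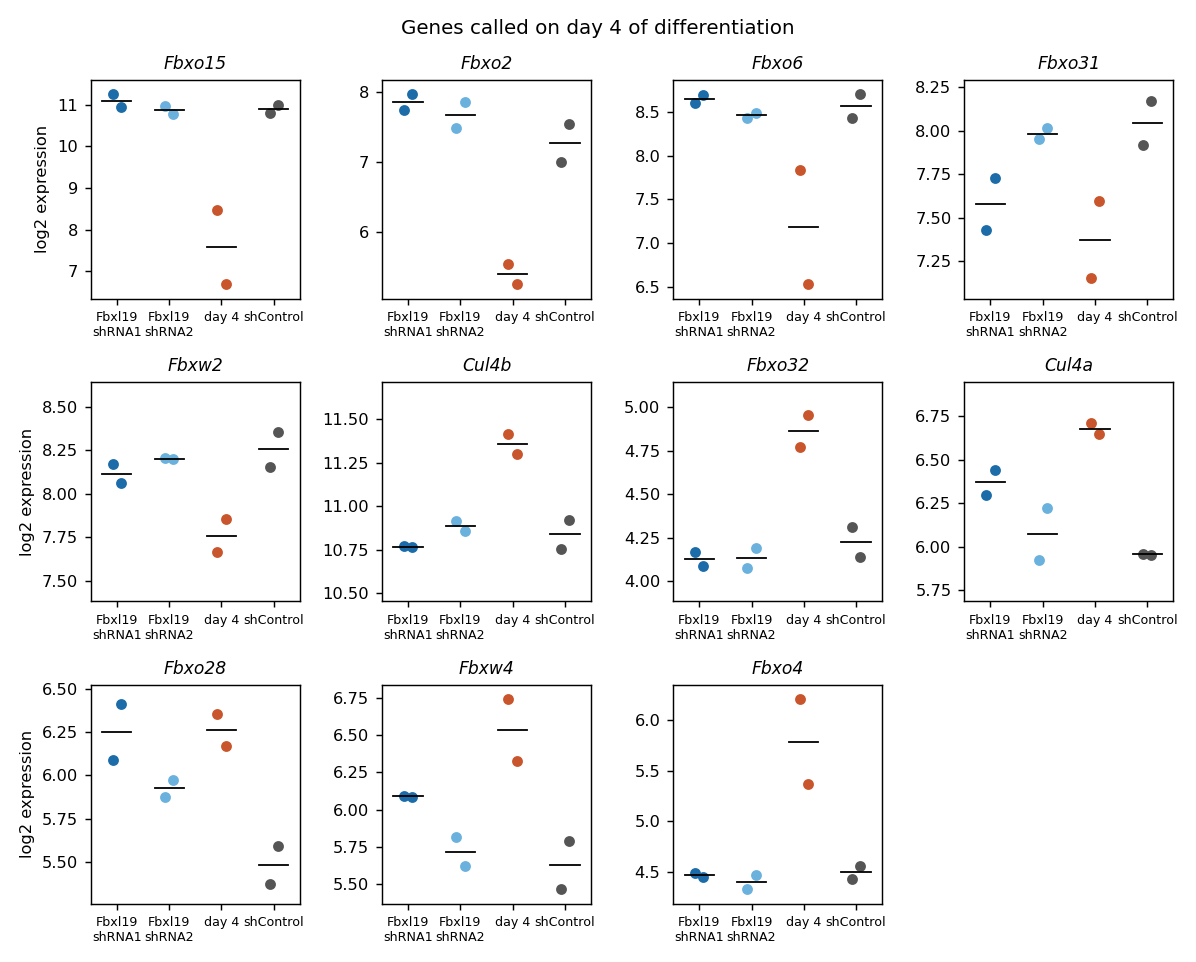
Log2 expression of the 11 genes called on day 4, with a point for each array and a line at the mean of the 2 arrays of a group; each panel has its own axis. The day 4 points lie below both shControl points in 5 genes and above them in 6, and in Fbxo28 the shControl points lie below all others.

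Both Cul4 genes rose. Cul4a and Cul4b are scaffolds of ligases that use Ddb1 as adaptor and act in DNA replication and repair. Cul4a had 6.30 and 6.44 with shRNA1, 5.92 and 6.22 with shRNA2, 6.71 and 6.65 on day 4, and 5.96 and 5.95 with shControl. It rose by 0.72 ± 0.14, or 1.65-fold (limma adjusted p = 0.00951), and just missed the threshold without shControl replicate 2 (0.72). Cul4b had 10.77 and 10.77 with shRNA1, 10.91 and 10.86 with shRNA2, 11.41 and 11.30 on day 4, and 10.75 and 10.92 with shControl. It rose by 0.52 ± 0.13 (limma adjusted p = 0.0266), with day 4 above every other array. The Cul4b call was less firm than that of Cul4a: it was kept in 9 of 18 settings, against 16. It was lost on leaving out any knockdown array (0.52), day 4 replicate 1 (0.46) or shControl replicate 1 (0.43). The other probe set of Cul4b, also bright, had 10.10 and 9.40 on day 4 against 9.85 and 9.94 with shControl. It gave -0.14, and the mean of both probe sets gave 0.19.

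The promoter windows of these paralogs, both in GRCm38.p6, are shown because the genes share a function and both were called higher. CpG dinucleotides are again in capitals. The Cul4a window is chr8:13105373-13105672 on the plus strand and the Cul4b window is chrX:38576147-38576446 on the minus strand.
Cul4a: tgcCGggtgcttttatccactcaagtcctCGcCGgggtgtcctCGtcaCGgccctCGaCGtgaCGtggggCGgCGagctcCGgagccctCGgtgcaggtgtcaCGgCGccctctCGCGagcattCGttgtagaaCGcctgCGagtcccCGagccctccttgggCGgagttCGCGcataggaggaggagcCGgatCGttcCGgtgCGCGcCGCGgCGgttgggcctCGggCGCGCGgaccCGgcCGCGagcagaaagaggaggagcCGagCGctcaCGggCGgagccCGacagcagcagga
Cul4b: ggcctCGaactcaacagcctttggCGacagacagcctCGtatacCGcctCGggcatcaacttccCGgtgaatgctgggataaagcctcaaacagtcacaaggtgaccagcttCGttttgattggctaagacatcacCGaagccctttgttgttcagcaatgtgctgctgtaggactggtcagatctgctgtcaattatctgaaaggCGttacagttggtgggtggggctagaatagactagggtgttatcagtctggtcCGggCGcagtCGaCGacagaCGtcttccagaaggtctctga
They held 43 and 14 CpG dinucleotides. A window was listed for 33 of the 47 genes, taking the first where several were listed. These 33 held a median of 20 CpG dinucleotides, from 0 in Skp2 and Fbxw14 to 56 in Fbxl14, where the median over 27025 genes of the table was 7. At least 10 were found in 27 of the 33 (81.8%) and in 43.9% of all genes of the table. CG has the same letters on both strands, so each site was counted once. The table of all genes also holds noncoding genes, and the comparison is a description.

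The remaining cullins were not called against shControl with all arrays in the fit. Cul1, the SCF scaffold, had 9.26 and 9.21 with shRNA1, 9.34 and 9.24 with shRNA2, 9.66 and 9.99 on day 4, and 9.55 and 9.63 with shControl. Its day 4 difference was 0.23 ± 0.15 (limma adjusted p = 0.353), yet the 4 knockdown arrays lay below both controls. The difference was 0.06 without day 4 replicate 2 and 0.39 without day 4 replicate 1. Against the mean of the 3 undifferentiated groups Cul1 had 0.45 and was called (limma adjusted p = 0.0269). Cul2, the scaffold used by the von Hippel-Lindau protein, had 9.69 and 9.77 on day 4 against 9.97 and 10.32 with shControl, a difference of -0.41 ± 0.15 (limma adjusted p = 0.106). Cul2 was called against the mean of the 3 undifferentiated groups (-0.42, adjusted p = 0.0390) and without shControl replicate 1 (-0.59, adjusted p = 0.0365), and was -0.23 without shControl replicate 2. Cul3, which works with BTB proteins, differed by 0.03 ± 0.13, and Cul7, which works with Fbxw8, by 0.01 ± 0.14. The day 4 and control arrays of Cul3 and Cul7 overlapped.

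Fbxo28 rose on day 4 by 0.78 ± 0.16 (limma adjusted p = 0.0107). In human cells its product ubiquitinates MYC. It had 6.09 and 6.41 with shRNA1, 5.88 and 5.97 with shRNA2, 6.36 and 6.17 on day 4, and 5.38 and 5.59 with shControl. The control arrays were thus the low group, below all 6 others. Set against the mean of the 3 undifferentiated groups, the day 4 difference was 0.38 and was not called (limma adjusted p = 0.0702). The call was also lost without shControl replicate 1 (0.67).

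Fbxo31 and Fbxw2 completed the list of genes called lower on day 4. Fbxo31, which in human cells targets cyclin D1 after DNA damage, had 7.43 and 7.73 with shRNA1, 7.95 and 8.01 with shRNA2, 7.15 and 7.59 on day 4, and 7.92 and 8.17 with shControl. It fell by 0.67 ± 0.19 (limma adjusted p = 0.0397). The call was kept in 9 of 18 settings; it was lost without any knockdown array (-0.67), day 4 replicate 1 (-0.45), shControl replicate 1 (-0.80) or shControl replicate 2 (-0.54). Fbxw2 had 7.67 and 7.85 on day 4 against 8.16 and 8.36 with shControl, and fell by 0.50 ± 0.14 (limma adjusted p = 0.0412). Its call was kept in 8 of 18 settings, and was lost without any knockdown array (-0.50), day 4 replicate 1 (-0.40) or shControl replicate 2 (-0.40). Its 6 probe sets did not move alike, with differences from -0.50 to 0.40 and a mean over probe sets of -0.06. Fbxo9 was not called against shControl with all arrays as deposited, with 6.44 and 7.15 on day 4 against 6.99 and 7.58 with shControl. Its dimmer probe set fell by 0.59 when each probe set was tested on its own (limma adjusted p = 0.0399).

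Of 7 measured genes for SCF receptors of cell cycle substrates and their cofactors, 0 were called on day 4, and 3 lay above 0. Skp2, which selects the inhibitor p27 for destruction, had 9.05 and 9.74 on day 4 against 10.07 and 9.71 with shControl, a difference of -0.49 ± 0.22 (limma adjusted p = 0.183). The groups overlapped, and the difference was -0.84 and called without day 4 replicate 2, but -0.14 without day 4 replicate 1. A dimmer Skp2 probe set, with a mean of 6.46, fell by 0.82 on day 4 when each probe set was tested on its own (limma adjusted p = 0.0266). It was the only one of the 6 Skp2 probe sets called, and in all others the day 4 and shControl arrays overlapped. Ccnf, which encodes cyclin F, had 8.91 and 9.05 on day 4 against 9.36 and 9.46 with shControl, a difference of -0.43 ± 0.13 at the edge of the threshold (limma adjusted p = 0.0509). It was called in 4 of 18 settings, among them without day 4 replicate 2 (-0.50). A list of 16 proliferation genes had a median of -0.36 and 1 member that fell (Ccnb2, by 0.47). The mean level of that list was 10.20 and 10.68 on day 4 against 10.75 and 10.88 with shControl. Its part in the values of Skp2 and Ccnf was not tested.

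The receptors Fbxw7, Btrc and Fbxw11, which bind phosphorylated substrates, were not called on day 4 against shControl. Fbxw7, which recognises cyclin E, Myc, Jun and Notch, had 7.85 and 8.0 on day 4 against 8.14 and 8.46 with shControl, a difference of -0.38 ± 0.15 (limma adjusted p = 0.128). Set against the mean of the 3 undifferentiated groups it was -0.55 and was called (limma adjusted p = 0.0107), and it was also called without shControl replicate 1 (-0.54), but it was -0.22 without shControl replicate 2. The other probe set of Fbxw7, nearly as bright, had 8.35 and 7.87 on day 4 against 8.07 and 8.29 with shControl, and there the groups overlapped. Btrc and Fbxw11 encode the β-TrCP proteins, which act on β-catenin and IκB. Btrc had 5.08 and 4.92 on day 4 against 4.86 and 5.11 with shControl, and the groups overlapped. A dimmer probe set of Btrc had 4.64 and 5.35 on day 4 against 4.56 and 4.44 with shControl, without overlap, and was not called. Fbxw11 had 11.58 and 11.49 on day 4 against 11.27 and 11.22 with shControl, a difference of 0.29 ± 0.12 (limma adjusted p = 0.153). The adaptor Skp1 had 12.57 and 12.91 on day 4 against 12.83 and 12.98 with shControl, again overlapping.

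No Fbxl gene was called on day 4 with all arrays as deposited, where the 6 genes ranged from -0.21 to 0.47. Fbxl12 had 6.44 and 6.47 on day 4 against 5.73 and 6.23 with shControl, a difference of 0.47 ± 0.18 (limma adjusted p = 0.116). Fbxl12 was called without shControl replicate 2 (0.72, adjusted p = 0.0388) and with quantile normalization repeated (0.56, adjusted p = 0.0378), and was 0.22 without shControl replicate 1. Fbxl14, whose product degrades the Snail protein, had 8.35 and 8.57 on day 4 against 7.86 and 8.31 with shControl, or 0.38 ± 0.17 (limma adjusted p = 0.186), and Fbxl14 was 0.16 without shControl replicate 1 and 0.60 without shControl replicate 2. Fbxl20 matters for a different reason, because a free-text label names Fbxl20, Fbxl21 and Fbxl22 as the knockdown target on 3 of the 4 knockdown arrays, where titles and source names give Fbxl19. Fbxl20 had 6.53 and 6.73 with shRNA1, 6.50 and 6.64 with shRNA2, 6.87 and 6.86 on day 4, and 6.64 and 6.49 with shControl. The array whose free-text label names Fbxl20, shRNA1 replicate 2, had the highest value of the 6 undifferentiated arrays.

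Calls on day 4 were also counted in short lists of genes around the SCF core, where 16.4% of all genes were called. Of 7 neddylation genes measured, 0 were called, with a median of 0.28. Of 10 COP9 signalosome and cullin exchange genes, 1 fell: Cops7a, a signalosome subunit, by 0.62 ± 0.16 (limma adjusted p = 0.0289). Of 7 E2 and partner enzymes, 1 rose: Ube2r2, an E2 that extends ubiquitin chains on SCF substrates, by 0.60 ± 0.12 (limma adjusted p = 0.0111). Kdm2b, an F-box protein with a CXXC finger like Fbxl19, had 8.88 and 9.34 on day 4 against 8.88 and 8.83 with shControl, a difference of 0.25 ± 0.17 (limma adjusted p = 0.367). Among 19 adaptors and receptors of other cullins, 1 rose and 2 fell, a share near that of all genes. Klhl21, a Cul3 adaptor of mitosis, rose by 0.79 ± 0.17. Klhl13, another Cul3 adaptor of mitosis, fell by 0.70 ± 0.15, and Socs3, a Cul5 receptor and inhibitor of LIF signalling, by 4.75 ± 0.26.

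Of 26 genes whose proteins are known SCF substrates, 3 rose and 3 fell on day 4, where 7.67% of all genes were called higher and 8.73% lower. This concerns RNA and not the protein on which the ligase acts. Jun had 7.79 and 6.89 on day 4 against 3.70 and 4.15 with shControl, and rose by 3.42 ± 0.27. The inhibitor genes Cdkn1a and Cdkn1c rose by 0.50 ± 0.13 and 0.54 ± 0.16. Ccnd3, a D-type cyclin gene, fell by 1.92 ± 0.14. Notch1 fell by 0.89 ± 0.19, and Cdt1, a replication licensing gene, by 0.49 ± 0.13. The limma adjusted p of these 6 genes was at most 0.0450, that of Cdkn1c.

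Knockdown of Fbxl19 left every one of the 47 genes short of the threshold. With both hairpins averaged, 0 of 47 were called, where 0.0726% of all genes were (0.0565% higher and 0.0161% lower). At an unadjusted p under 0.05 there were 4 (8.51%), against 8.42% of all genes. The 47 differences ran from -0.49 to 0.60 with a median of 0.00. In 7 genes (14.9%) the 4 knockdown arrays did not overlap the controls, as in 20.1% of all genes. The lowest limma adjusted p among the 47 was 0.237, that of Fbxo28.

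Fbxo28 had the largest difference with both hairpins averaged, 0.60 ± 0.14. As given above, its 4 knockdown arrays, 5.88 to 6.41, lay above the controls at 5.38 and 5.59. Fbxo2 had 0.49 ± 0.19 (limma adjusted p = 0.542), with shRNA2 replicate 1 (7.48) within the control range of 7.01 to 7.54. Its difference was 0.22 without shControl replicate 1 and 0.76 without shControl replicate 2. Skp2 had -0.49 ± 0.19 (limma adjusted p = 0.553), with shRNA1 and shRNA2 far apart. Cul1 had -0.33 ± 0.13 (limma adjusted p = 0.549), with all 4 knockdown arrays below both controls.

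With shRNA1 against shControl, 0 of 47 genes were called, where 0.242% of all genes were (0.169% higher and 0.0726% lower). At an unadjusted p under 0.05 there were 8 (17.0%), against 9.83% of all genes, and in 19 (40.4%) the arrays did not overlap, against 43.4%. Skp2 had the largest difference. Its values were 8.98 and 8.93 with shRNA1, 9.88 and 9.80 with shRNA2, and 10.07 and 9.71 with shControl. The shRNA1 arrays lay well below all others, and the difference was -0.93 ± 0.22, or 1.90-fold lower (limma adjusted p = 0.191). It passed without either day 4 array in the fit (limma adjusted p = 0.0283 each) and with only shRNA1 and shControl in the fit (limma adjusted p = 0.0271), with the same difference. Fbxo28 had 0.76 ± 0.16 (limma adjusted p = 0.124), Fbxo2 0.58 ± 0.22 and Fbxo31 -0.47 ± 0.19. For Fbxo2 and Fbxo31 the limma adjusted p was 0.432 and 0.466. Leaving out 1 array gave 0.32 to 0.85 for Fbxo2.

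The other 4 genes at an unadjusted p under 0.05 were Ccnf, Cul1, Cul4a and Fbxw4. Ccnf had 8.97 and 9.01 with shRNA1, 9.54 and 9.53 with shRNA2, and 9.36 and 9.46 with shControl. Its difference with shRNA1 was -0.42 ± 0.13 (limma adjusted p = 0.344), close to that on day 4. Cul4a had 0.42 ± 0.14 and Fbxw4 0.46 ± 0.18, and both genes were called higher on day 4 (0.72 and 0.90); these comparisons share the control arrays. Cdkn1b, which encodes p27, the best-known Skp2 substrate, had 7.14 and 7.63 with shRNA1, 7.32 and 7.92 with shRNA2, and 6.89 and 7.05 with shControl. All 4 knockdown arrays of Cdkn1b lay above the controls, and in 20.1% of all genes the knockdown arrays did not overlap the controls. The Cdkn1b difference was 0.42 ± 0.26 with shRNA1 (limma adjusted p = 0.645) and 0.65 ± 0.26 with shRNA2 (limma adjusted p = 0.940). These values concern RNA and not the p27 protein, and a link to Skp2 was not tested.

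The Skp2 reading could be checked on 6 probe sets. With shRNA1 they gave -0.93, -0.95, -0.78, -0.75, -1.19 and -0.29, in order from the brightest to the dimmest. The smallest difference was that of the dimmest probe set, with a mean of 4.69. With shRNA2 the same probe sets gave -0.05, -0.06, 0.10, 0.16, -0.31 and -0.68. The probe sets read 1 gene on the same arrays and are not replicates.

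**Figure D3:**
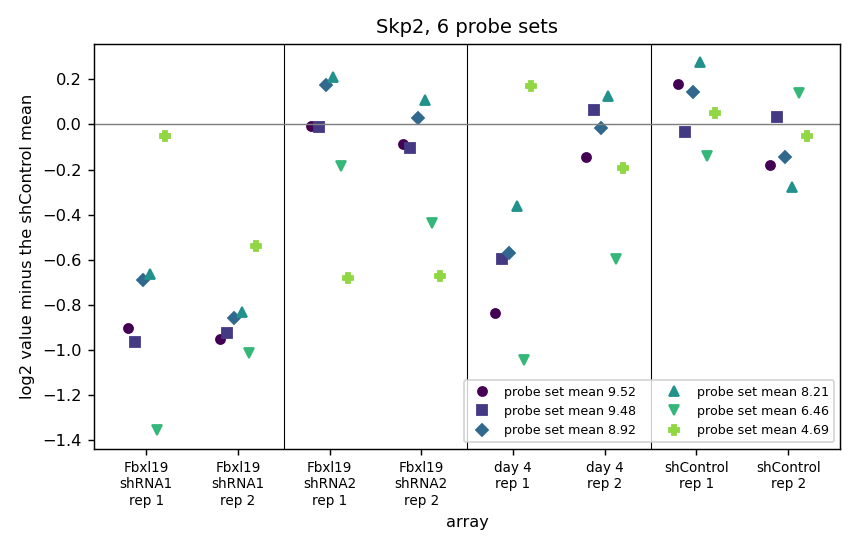
Log2 value of each of the 6 Skp2 probe sets on each array minus that probe set's shControl mean, with a symbol for each probe set, named by its mean over the 8 arrays. On the shRNA1 arrays 5 probe sets lie below those of shControl, the exception being the dimmest (4.69), which lies low with shRNA2.

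With shRNA2 against shControl, 0 of 47 genes were called, where 0% of all genes were. At an unadjusted p under 0.05 there were 2 (4.26%), Fbxo28 and Fbxw5, against 5.1% of all genes, and in 12 (25.5%) the arrays did not overlap, against 33.1%. Fbxo28 had 0.44 ± 0.16 (limma adjusted p = 0.896). Fbxw5 had 5.26 and 5.13 with shRNA1, 5.55 and 5.29 with shRNA2, 5.35 and 5.29 on day 4, and 5.09 and 5.03 with shControl, with a shRNA2 difference of 0.36 ± 0.14 (limma adjusted p = 0.925). Fbxw7 had 8.53 and 8.51 with shRNA1, 8.65 and 8.57 with shRNA2, and 8.14 and 8.46 with shControl. Its difference with shRNA2 was 0.31 ± 0.15 (limma adjusted p = 0.970), and it was 0.15 without shControl replicate 1 and 0.47 without shControl replicate 2. Fbxo2 had 0.40 ± 0.22 (limma adjusted p = 0.985), and 0.13 and 0.67 without the same arrays.

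**Figure D4:**
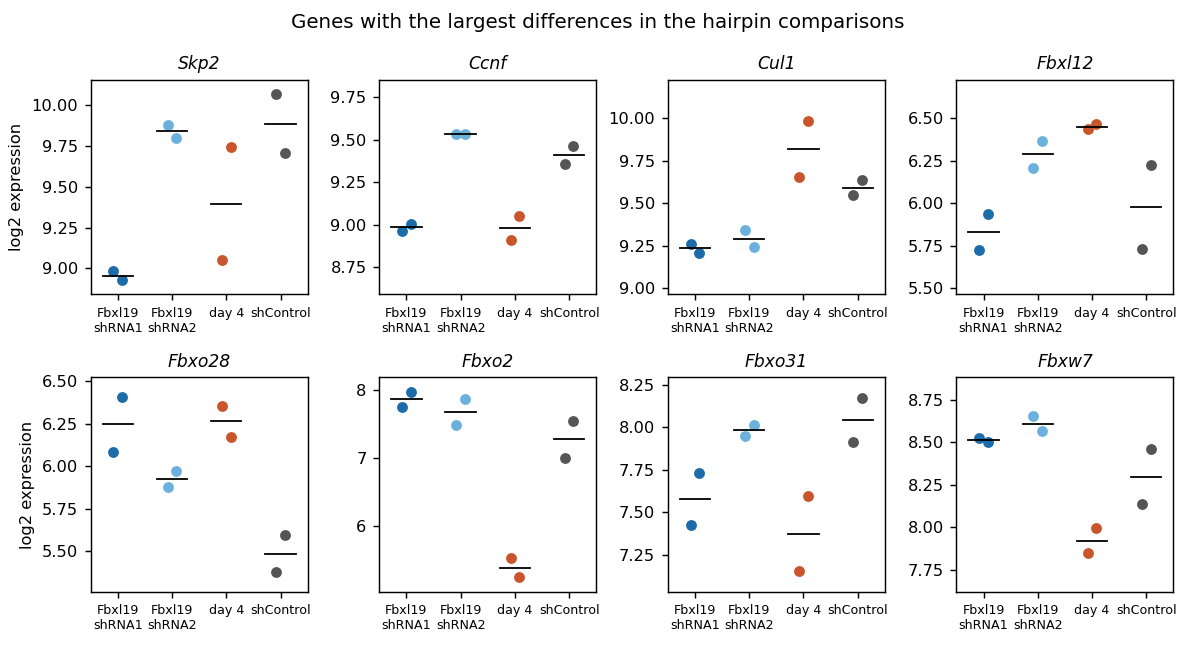
Log2 expression of 8 genes among those with the largest differences in the hairpin comparisons, with a point for each array and a line at the mean of the 2 arrays of a group; each panel has its own axis. Skp2 and Ccnf are low with shRNA1 and not with shRNA2, and Cul1 lies below both controls with each hairpin.

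The hairpins were also set against each other, with no control arrays in the difference. For shRNA2 against shRNA1, 0 of 47 genes were called, where 0.105% of all genes were (0.0323% higher and 0.0726% lower). In 26 genes (55.3%) the arrays of the hairpins did not overlap, as in 43.6% of all genes, and 3 (6.38%) had an unadjusted p under 0.05, against 5.15%. These were Skp2, Ccnf and Fbxl12. Skp2 was higher by 0.88 ± 0.22 with shRNA2 (limma adjusted p = 0.388), and Ccnf by 0.55 ± 0.13 (limma adjusted p = 0.294). Both passed only with array weights in the fit (limma adjusted p of 0.0157 for Skp2 and 0.0225 for Ccnf). Fbxl12 had 6.21 and 6.37 with shRNA2 against 5.73 and 5.94 with shRNA1, a difference of 0.46 ± 0.18 (limma adjusted p = 0.893). Fbxo31 had the fourth largest difference, 0.40 ± 0.19, with 7.95 and 8.01 with shRNA2 against 7.43 and 7.73 with shRNA1. The proliferation list had a median of 0.12 in this comparison, 14 of its 16 genes lying above 0 and 0 called. Its mean level was 10.79 and 10.85 with shRNA2 against 10.67 and 10.74 with shRNA1, and its part in these values was not tested.

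The fixed lists around the SCF were likewise not called in any of the 4 hairpin comparisons, with 0 members past the threshold among the core subunits, other cullins, cell cycle receptors, neddylation genes, COP9 and exchange genes, E2 enzymes, adaptors of other cullins and SCF substrates. With both hairpins averaged, the COP9 and exchange genes had a median of -0.14 (2 of 10 above 0), the neddylation genes -0.12 (1 of 7) and the E2 enzymes -0.13 (1 of 7), where the median of all genes was 0.00. The largest difference among substrates was that of Ccnd2, -0.98 ± 0.14 (limma adjusted p = 0.0760). Rbl2, a pocket protein gene, had 0.70 ± 0.14 (limma adjusted p = 0.152). Vhl, the von Hippel-Lindau receptor of Cul2, had -0.48 ± 0.13 (limma adjusted p = 0.360).

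With both hairpins averaged, the absolute difference from shControl had a median of 0.10 over the 47 genes and 0.12 over all genes. Fbxo22 illustrates what the control arrays allow: it had 10.60 and 10.55 with shRNA1, 10.24 and 10.56 with shRNA2, 10.49 and 9.86 on day 4, and 10.76 and 9.72 with shControl. The gap of 1.04 between its control arrays was the widest of the 47 genes in that group and exceeded every difference between its group means. Its second-brightest probe set, with a mean of 9.19, fell by 0.70 ± 0.14 on day 4 when each probe set was tested on its own (limma adjusted p = 0.0119), where the brightest gave -0.06.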

How the data were processed

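Values for 22690 probe sets on 8 Affymetrix arrays were used as deposited. They are log2 expression values deposited by the authors, and the submitters' processing notes name RMA. Its version and the set of arrays normalized at once are not stated in the labels. No scanner intensities were used, so background per probe set is unknown, and the number of arrays limits the precision. GEO's platform annotation gave 20393 probe sets 1 symbol, 691 several and 1606 none. The 64 control probe sets are among these and were not filtered separately. Each gene was represented by its brightest probe set.

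A model of 4 group means was fitted over 12394 genes with lmFit and eBayes (limma 3.58.1, R 4.3.3), with 4 residual degrees of freedom and Benjamini-Hochberg adjustment within each of 5 comparisons. The fit was tested on simulated data with differences larger than most of those reported here, which does not show how it does at smaller sizes. Groups came from sample titles. The genes and lists were chosen with earlier results of these data known. The text names every gene called in any comparison, the 4 largest differences of each, the core SCF genes, Fbxl20, and of each list the called and up to 2 largest; other genes were picked after their values were seen. Alternatives varied the probe set rule, dim-gene filter, eBayes settings, arrays in the fit, array weights, normalization and replicate block. Promoter windows are from RefSeq, GRCm38.p6.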

Additional observations from a re-analysis of the deposited data

Results flagged for a closer look

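In 8 of the 47 genes (17.0%) the arrays of both hairpins lay on opposite sides of the shControl mean, as in 8.82% of all genes. The difference of shRNA2 minus shRNA1 on the log2 scale was 0.55 for Ccnf, 0.46 for Fbxl12, 0.27 for Fbxo25, 0.23 for Fbxo9, 0.19 for Cul9 and 0.12 for Cul4b, and it was -0.27 for Fbxo45 and -0.18 for Fbxo6. The other probe set of Fbxo45 went the opposite way, with 6.24 and 6.11 with shRNA1 against 6.48 and 6.31 with shRNA2. So did that of Cul4b, with 10.07 and 10.04 with shRNA1 against 9.83 and 9.85 with shRNA2. In the other probe set of Fbxo9 the hairpins overlapped, and the remaining genes had 1 probe set. In 1 of the 8, Ccnf, the hairpins also lay beyond both control arrays on opposite sides (2.13%, against 2.12% of all genes). In the limma comparison of the hairpins 0 of the 47 genes were called, 3 had an unadjusted p under 0.05, and the lowest adjusted p was 0.294.

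Of 4 probe sets annotated to Rbx1 and its pseudogene together, outside the rule, 1 had 8.79 and 8.57 with shRNA1 and 8.55 and 8.61 on day 4, against 8.42 and 8.41 with shControl. The differences from shControl were 0.26 with shRNA1 and 0.16 on day 4. The other 3, of which a pair was brighter, had -0.06, -0.05 and -0.05 with shRNA1 and 0.10, 0.11 and 0.04 on day 4. RNA of the gene and of the pseudogene cannot be told apart on them, and the differences were not tested.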

How the results depend on the processing

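The count of 11 genes called on day 4 was 5 with array weights and 6 with only the groups compared in the fit, and it ran from 6 to 16 when each array was left out in turn. It was 7 without shControl replicate 1, 6 without shControl replicate 2 and 16 without day 4 replicate 2. A lone array was assumed to vary like the other groups. Among the alternatives, the share of all genes called is given only against the mean of the undifferentiated groups. Whether the other changes in count are particular to these genes or shared by the whole array was therefore not tested. With shRNA1 the count of 0 became 1, Skp2, with only the groups compared, and was 0 to 1 over the left-out arrays. Between the hairpins it became 2, Skp2 and Ccnf, with array weights. With both hairpins averaged and with shRNA2 it was 0 under all 17 alternatives. The day 4 difference of Btrc turned to -0.038 against the mean of the undifferentiated groups and ran from -0.11 to 0.14 over left-out arrays. With the mean of the probe sets of Btrc it was 0.26, the highest of all settings. The day 4 difference of Skp1 ran from -0.34 to 0.0063. Replicate numbers are shared between groups, and replicate 1 deviations correlated at 0.50 between the hairpins, at 0.26 and 0.23 between shControl and shRNA1 or shRNA2, and at -0.08 to 0.07 between day 4 and the others. The labels name no shared batch, and with 2 numbers the pairing was not settled, so the block is given as an alternative only. With the replicate block, 13 genes were called on day 4 and 0 in the hairpin comparisons. Centring each array moved the median of all genes by at most 0.063. Genes near the lower quartiles, such as Cul9 and Fbxo43, are limited by signal over background, which is unknown.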
